A study of Homo sapiens with 28 samples.

Results

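The BCL2 family sets the threshold for apoptosis at the mitochondrion, and 10 of its genes were followed through treatment of 7 acute myeloid leukaemia (AML) cell lines with a DNMT1 inhibitor. They were the survival-promoting genes BCL2A1, BCL2, MCL1 and BCL2L1, the effector BAK1, and the BH3-only genes BCL2L11, BID, BAD, PMAIP1 and BMF. Every probe set annotated to 1 of these genes was taken, which gave 30 of the 27306 probe sets and 10 of the 11676 genes on the arrays. The number of probe sets per gene ran from 1 for BCL2A1, BAK1 and BMF to 7 for BCL2L11. The established lines MOLM13, GDM1, SKM1, THP1, NOMO1, SHI1 and SKNO1 were obtained from public cell repositories. Each was cultured for 96 hours with 1 µM GSK3484862, a small molecule that inhibits DNMT1, the enzyme that copies DNA methylation after replication, or with the vehicle, 0.1% DMSO. RNA was hybridised to Affymetrix U133 Plus 2.0 arrays, with biological duplicates in each of the 14 groups and 28 arrays in all. The labels give no mutation or engineered allele for any line, and each line stands for 1 leukaemia, so a difference between lines is a difference between these lines.

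Survival-promoting members hold the effectors BAX and BAK1 inactive and bind the BH3-only members. BH3-only proteins are induced or modified by stress, occupy the groove of the survival-promoting proteins and help to activate the effectors, which then permeabilise the mitochondrial outer membrane. Myeloid leukaemia cells are known for their dependence on BCL2 and MCL1, and the BCL2 inhibitor venetoclax is given together with DNA-hypomethylating drugs in AML.

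Because the inhibitor blocks the copying of methylation at CG dinucleotides, the CG content of the proximal promoters is shown for the 3 members with the largest average changes. The sequences are from RefSeq (GRCh38.p14), read 5′ to 3′ on the gene's own strand over the 250 bases before the annotated start, with every CG in capitals (the motif is its own reverse complement). No methylation was measured here. The BCL2A1 window lies at chr15:79971197-79971446 on the minus strand, that of BCL2 at chr18:63319770-63320019 on the minus strand, and that of PMAIP1 at chr18:59899746-59899995 on the plus strand.
BCL2A1: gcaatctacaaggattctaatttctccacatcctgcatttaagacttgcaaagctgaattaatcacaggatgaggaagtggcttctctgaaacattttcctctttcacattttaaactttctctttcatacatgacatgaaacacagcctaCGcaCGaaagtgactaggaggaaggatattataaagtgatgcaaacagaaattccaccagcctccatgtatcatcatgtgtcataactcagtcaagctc
BCL2: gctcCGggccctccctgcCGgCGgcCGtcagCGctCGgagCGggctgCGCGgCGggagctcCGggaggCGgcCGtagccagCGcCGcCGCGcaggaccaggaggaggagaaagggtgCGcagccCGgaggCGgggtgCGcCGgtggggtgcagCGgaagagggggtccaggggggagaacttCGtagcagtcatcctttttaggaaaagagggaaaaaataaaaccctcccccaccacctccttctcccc
PMAIP1: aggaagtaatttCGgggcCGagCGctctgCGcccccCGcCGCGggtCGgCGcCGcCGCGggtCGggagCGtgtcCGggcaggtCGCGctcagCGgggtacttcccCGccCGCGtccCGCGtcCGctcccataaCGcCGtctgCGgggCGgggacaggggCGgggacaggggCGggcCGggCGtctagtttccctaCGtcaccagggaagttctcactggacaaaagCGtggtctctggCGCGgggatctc
The BCL2A1 window held 2 CG, and 22.9% of the 35116 promoters of the same length held as few or fewer. BCL2 had 24 CG (78.4% of promoters with as few or fewer) and PMAIP1 had 36 (96.0%). Among the other members called up on average, the window of BCL2L11 held 34 CG (94.2%) and that of BAK1 held 5 (38.1%). Those of BMF, another gene called up, held 26 (82.3%) and 0 (6.1%). The windows of BAD, called down on average, held 17 (63.2%) and 20 (69.8%). A link between direction and CG content was not tested. Of the 10 members, 9 had 16 entries in the promoter table, 12 of them above the median of 11 CG over all promoters. MCL1 is named only.

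Signals are on the log2 scale, with a shared lowest value of 2.13 (the floor), a maximum of 16.8 and array medians of 8.33 to 8.51, and no member probe set lay at the floor on any array. Duplicates correlated at r = 0.991 to 0.997 across probe sets (not independent points), and 1 array had an SD of 0.183 to 0.301, with the upper end in SKM1 under GSK3484862. Precision is limited by the number of arrays. The pan-leukocyte gene PTPRC (11.2 to 13.5) and the myeloid genes SPI1 (8.85 to 10.5), CEBPA (8.69 to 13.8), LYN (9.84 to 13.8) and MPO (6.84 to 15.6) had signal on all 28 arrays. The 4 measured non-haematopoietic and lymphoid markers were COL1A1 (8.57 to 10.1), CD3D (3.57 to 14.7), KRT8 (4.84 to 7.54) and CD79A (3.86 to 7.64). Signal of this size therefore does not by itself show identity. Of 27306 probe sets, 8963 (32.8%) carried 1 identical value on 3 or more arrays, and 6 of the 30 member probe sets did so. They are named where they matter. The drug's target DNMT1 changed by -0.09 ± 0.03 on average (adjusted p = 0.0136), and without GDM1, where it changed by -0.48, by -0.03 (adjusted p = 0.512).

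Changes are log2 GSK3484862 minus DMSO ± the standard error of a limma fit over all 28 arrays, and a call is a Benjamini-Hochberg adjusted p under 0.05 over all 27306 probe sets. Where a gene had several probe sets, the brightest stands for it and the others follow. On average over the 7 lines, BCL2A1 rose 2.42-fold, and BCL2 and PMAIP1 each fell to about 0.775 of their DMSO signal. BMF, MCL1, BCL2L11 and BAK1 rose by smaller amounts (0.09 to 0.35), BAD fell by 0.28, and BCL2L1 and BID were not called. In counts, 5 of the 10 genes rose and 3 fell, on a background in which 22.2% of all genes were called up, 27% down and 49.2% in all. Of the 30 probe sets, 6 rose and 6 fell, 40% in all, against 42.6% of all probe sets (18.4% up and 24.2% down). The share called was thus close to that of the array by probe set and larger by gene (8 of 10 against 49.2%), a difference that was not tested. The members were chosen with earlier results of these data known. With the mean of all probe sets of a gene, 3 genes rose and 3 fell. The median change of the 30 probe sets was 0.03, and that of all probe sets was -0.02. When only 1 replicate number of every group was kept, no probe set was called for the average, member or not, although 5914 and 6591 of all probe sets and 6 and 6 of the member probe sets had an unadjusted p under 0.05 (limma). Without duplicates, the error of that fit also holds the spread of the changes between lines. With the 7 lines as the units, BCL2 alone among the member probe sets was called (adjusted p = 0.0484), where 3.19% of all probe sets were (1.15% up and 2.04% down), and BCL2A1 (0.0542), PMAIP1 (0.0765) and BMF (0.0853) followed.

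**Figure D1:**
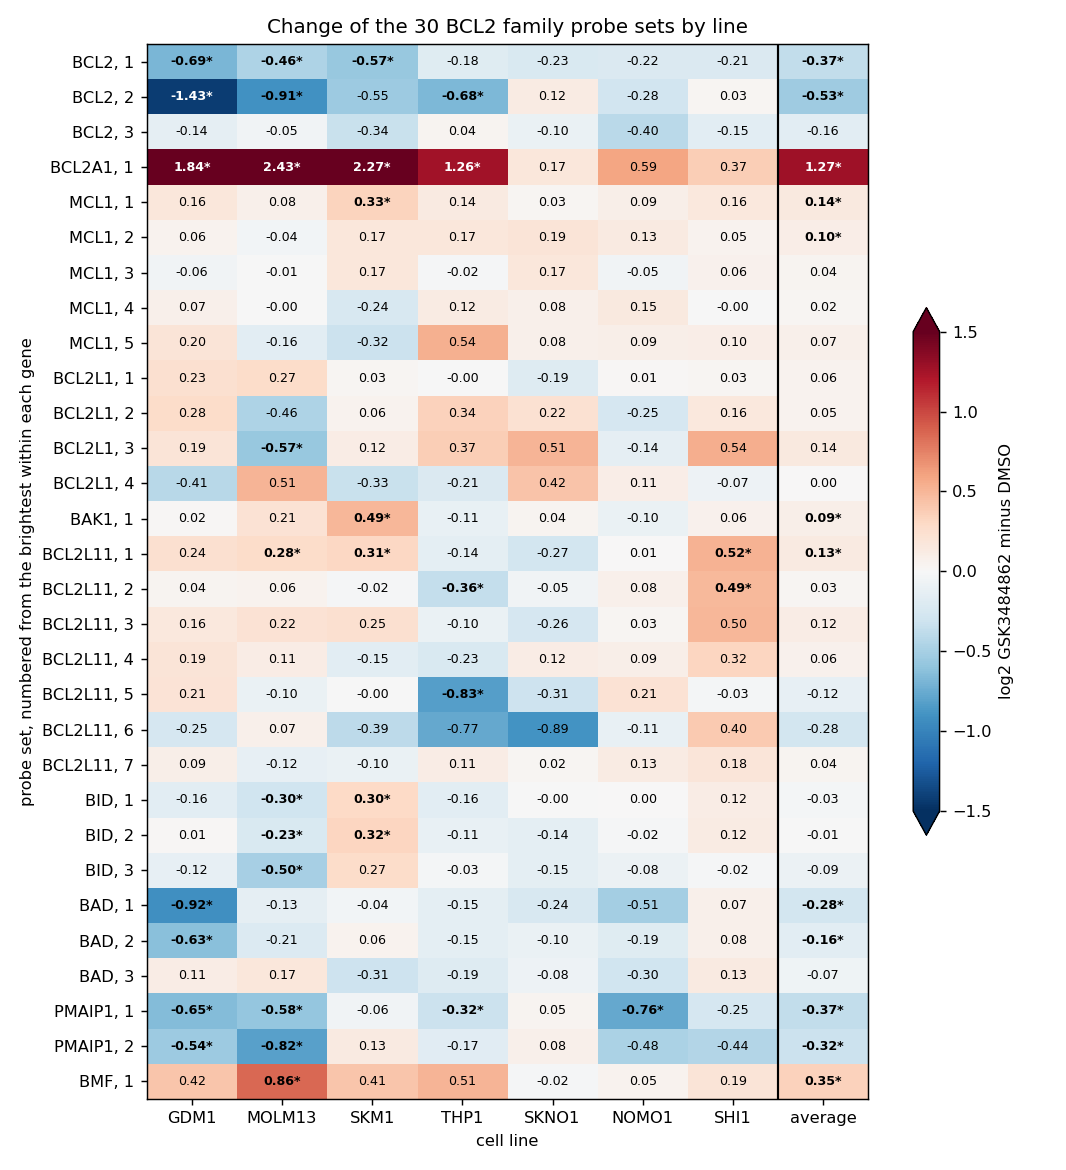
Log2 change (GSK3484862 minus DMSO) of the 30 BCL2 family probe sets (rows, numbered from the brightest within each gene) in the 7 lines and on average (columns), with limma calls at an adjusted p under 0.05 marked by an asterisk and in bold. The 2 brightest BCL2 rows and the PMAIP1 rows are blue in GDM1 and MOLM13, the BCL2A1 row is red in all 7 lines with 4 calls, and the SKNO1 column has no call; the colour scale ends at ±1.5.

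BCL2A1 encodes a survival-promoting protein of leukocytes that binds BH3-only proteins and is a known NF-kB target. It had by far the widest range of the family, since its 14 group means spanned 10.4 log2 units. GSK3484862-treated MOLM13 had 7.35 and 7.70, against 5.41 and 4.78 with DMSO. SKM1 had 11.25 and 11.49 with GSK3484862, against 8.82 and 9.40 with DMSO. In GDM1 the values were 6.16 and 5.29 with GSK3484862 and 3.56 and 4.21 with DMSO. In all 3 lines both treated arrays lay more than 1 log2 unit above both DMSO arrays. The rise was 2.43 ± 0.31 in MOLM13 (5.40-fold, adjusted p = 2.81e-05), 2.27 ± 0.31 in SKM1 (4.81-fold, 7.29e-05) and 1.84 ± 0.31 in GDM1 (3.57-fold, 0.000274). THP1 had 4.42 and 3.62 with GSK3484862, against 2.58 and 2.94 with DMSO, close to the floor of the arrays. Its rise of 1.26 ± 0.31 (adjusted p = 0.0166) was not called without DMSO replicate 1 (1.08, adjusted p = 0.140) or without GSK3484862 replicate 1 (0.86, adjusted p = 0.186), and the floor limits how large a rise could be measured there.

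In the other lines BCL2A1 was not called. NOMO1 had 13.07 and 13.18 with GSK3484862 and 12.51 and 12.56 with DMSO (0.59, adjusted p = 0.303). SHI1 had 11.69 and 11.84 with GSK3484862 and 11.48 and 11.31 with DMSO (0.37, adjusted p = 0.763). SKNO1 had 8.37 and 8.60 with GSK3484862 and 8.34 and 8.28 with DMSO (0.17, adjusted p = 0.938). Treated and DMSO arrays did not overlap in any of the 7 lines, where 44.5% to 59.4% of all probe sets did not overlap in single lines. All 7 changes were above 0, and 14% of all probe sets kept 1 sign in all 7 lines. The changes differed between lines (F-test adjusted p = 0.00239), and against the mean of the other 6 lines the change was larger by 1.35 ± 0.33 in MOLM13 and by 1.16 ± 0.33 in SKM1, and smaller in SKNO1 (difference -1.29 ± 0.33). Of the 30 probe sets, BCL2A1 and PMAIP1 gave the 2 that were called in 4 or more lines, where 3.91% of all probe sets were.

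**Figure D2:**
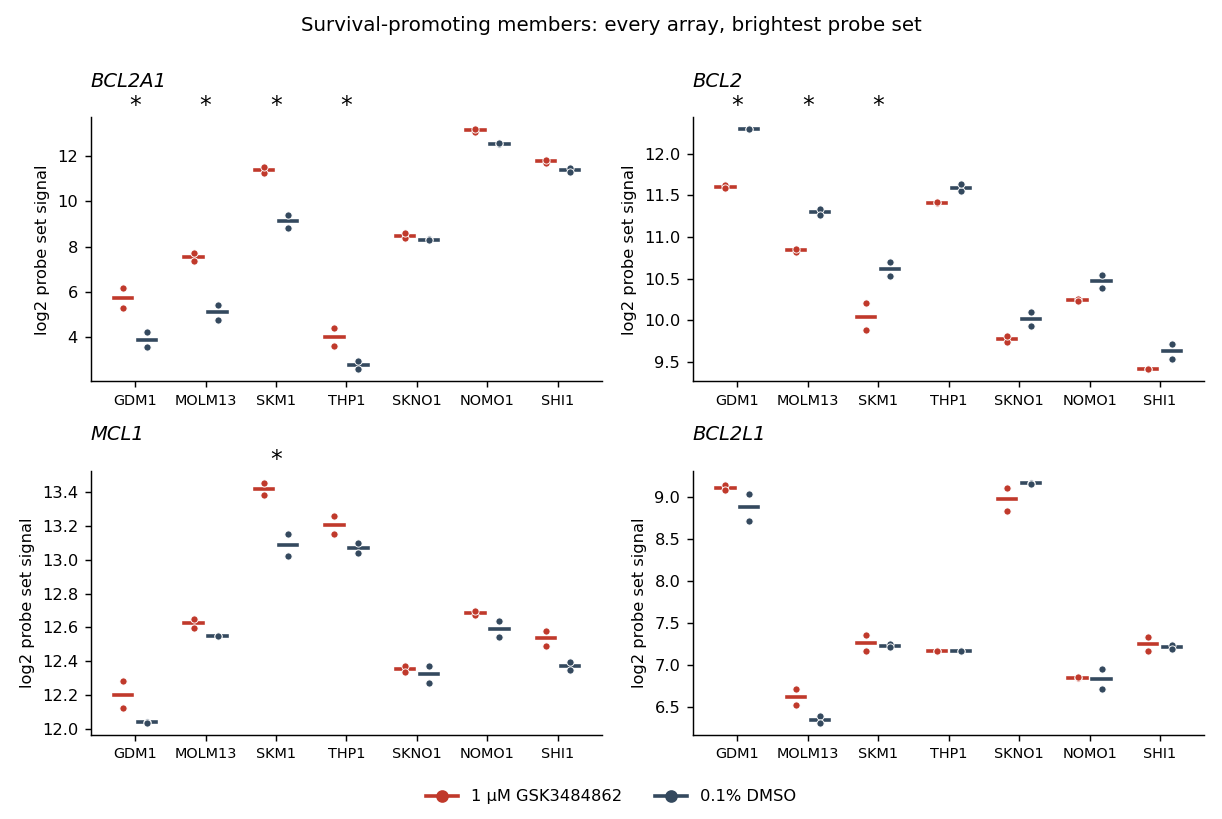
Log2 signal of the survival-promoting members (brightest probe set) on every array, GSK3484862 left of DMSO in each of the 7 lines; points are arrays, bars are means of 2, and asterisks mark limma calls at an adjusted p under 0.05. BCL2A1 is called up in 4 lines, BCL2 is lower with GSK3484862 in all 7 and called in 3, MCL1 is called in SKM1 alone, and BCL2L1 in no line; the axes differ between genes and do not start at 0.

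BCL2A1 was also the member whose DMSO level differed most between lines. Under DMSO it was highest in NOMO1 (12.53 ± 0.04, SD, n = 2), followed by SHI1 (11.39 ± 0.12), SKM1 (9.11 ± 0.41), SKNO1 (8.31 ± 0.05), MOLM13 (5.09 ± 0.45), GDM1 (3.88 ± 0.46) and THP1 (2.76 ± 0.25). All 21 pairs of lines differed (limma), where 60.9% of all comparisons of a probe set between a pair of lines were called, and 52.4% to 67.7% in single pairs. The order of the DMSO levels was not the reverse of the order of the changes, since SKM1 ranked above SKNO1 and MOLM13 ranked above THP1 in both.

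The mean of a list of monocyte and macrophage markers was higher with GSK3484862 in every line, as was BCL2A1. The mean of the 13 measured markers of 16 listed changed by 2.11 in MOLM13, 1.58 in GDM1, 1.32 in SKM1, 0.65 in THP1, 0.53 in SKNO1, 0.44 in SHI1 and 0.34 in NOMO1. On average 11 of the 13 rose and none fell (0 also at an unadjusted p under 0.05, limma), where 22.2% of all genes rose and 27% fell. The mean DMSO level of the list was 11.96 in NOMO1, 10.31 in THP1, 10.29 in SHI1, 10.18 in SKM1, 7.50 in MOLM13, 5.91 in GDM1 and 5.30 in SKNO1. The 4 lines in which BCL2A1 was called were the 4 with the largest mean marker changes, but by the median of the 13 markers the order differed. Medians were 1.43 in MOLM13, 1.00 in SKM1, 0.66 in THP1, 0.36 in SHI1, 0.35 in NOMO1, 0.28 in GDM1 and 0.15 in SKNO1. In GDM1 5 markers were called up and 1 down (10.4% and 15.5% of all probe sets), with changes from -0.57 to 8.24. The DMSO levels did not follow one order. THP1 had a marker mean like those of SHI1 and SKM1 and the lowest BCL2A1, and SKNO1 had the lowest marker mean and a BCL2A1 level above those of MOLM13 and GDM1. Of the defining markers, CD14 lay at the floor on 12 of 28 arrays and FCN1 on 1. The median FCN1 signal of 2.23 was nevertheless close to the floor of 2.13, and the medians of VCAN (3.39) and CD14 (3.49) were low. S100A8 and S100A9, with high medians (13.7 and 11.9), had lowest values of 2.13 and 2.23. The marker means thus include signals near the floor. Of 5 measured progenitor markers of 8 listed, 2 rose and 2 fell on average. Their mean changed by 0.37 in GDM1 and 0.22 in SHI1, and by -0.09 (THP1) to -0.44 (SKM1) in the other lines. In these bulk cultures more cells with a high level and more RNA per cell cannot be told apart, and the part of monocytic differentiation in the BCL2A1 result was not tested.

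**Figure D3:**
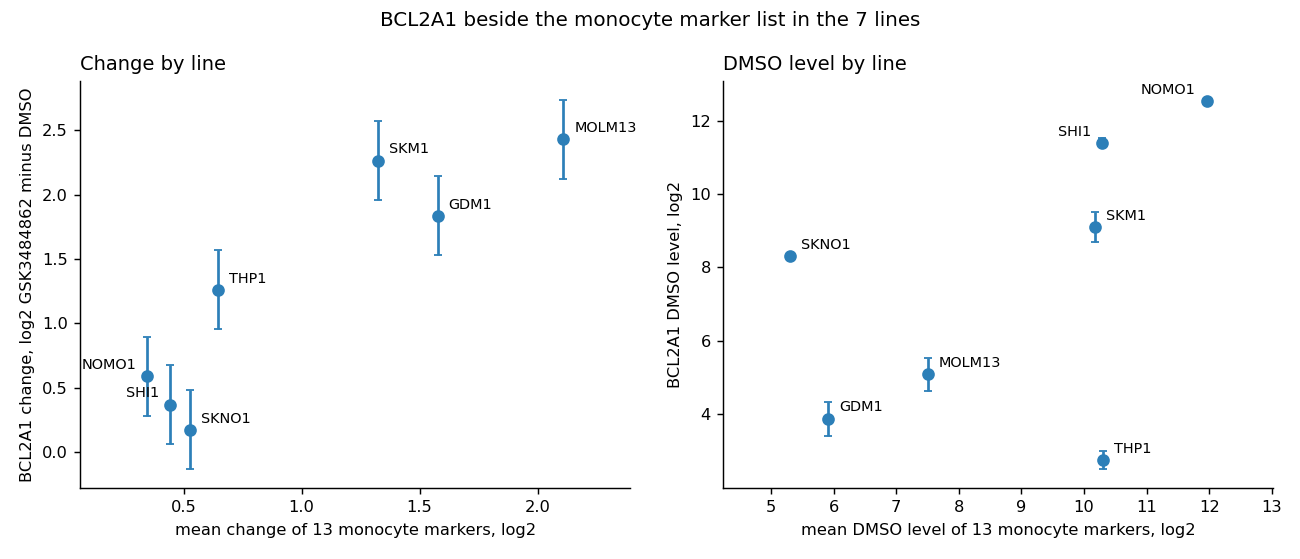
Left, BCL2A1 change in each line (log2 GSK3484862 minus DMSO, bars are the limma standard error) against the mean change of 13 monocyte markers; right, BCL2A1 DMSO level (log2, mean of 2 arrays, bars are SD) against the mean DMSO level of the same markers. MOLM13, SKM1, GDM1 and THP1 lie above SKNO1, SHI1 and NOMO1 on both scales of change, and in the level plot THP1 lies at the bottom right and SKNO1 at the left, above GDM1 and MOLM13.

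BCL2, the founding survival-promoting member and the target of venetoclax, moved the other way. Its brightest probe set (203685_at) had 11.63 and 11.58 in GDM1 with GSK3484862, against 12.29 and 12.29 with DMSO. SKM1 had 9.88 and 10.20 with GSK3484862, against 10.70 and 10.53 with DMSO. MOLM13 had 10.82 and 10.86 with GSK3484862, against 11.33 and 11.27 with DMSO. In each of these lines both treated arrays lay below both DMSO arrays, where 48.8% to 59.4% of all probe sets did not overlap. The fall was -0.69 ± 0.10 in GDM1 (adjusted p = 6.61e-05), -0.57 ± 0.10 in SKM1 (0.000615) and -0.46 ± 0.10 in MOLM13 (0.00299). The remaining 4 lines were not called, with changes of -0.23 in SKNO1, -0.22 in NOMO1, -0.21 in SHI1 and -0.18 in THP1, and their treated arrays were also all below the DMSO arrays. BCL2 was 1 of 3 member probe sets with the same sign in all 7 lines, together with BCL2A1 and the brightest MCL1 probe set, where 14% of all probe sets kept their sign. The average change was -0.37 ± 0.04 (adjusted p = 1.03e-06).

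The second BCL2 probe set (203684_s_at) also fell in 2 of the same lines, by larger amounts. It had 7.43 and 8.00 in GDM1 with GSK3484862, against 9.08 and 9.21 with DMSO, a fall of -1.43 ± 0.19 (adjusted p = 3.72e-05). It fell by 0.91 in MOLM13 (adjusted p = 0.00289) and by 0.68 in THP1 (adjusted p = 0.0370), and the THP1 call was lost when any 1 of its 4 arrays was left out (adjusted p 0.0670 to 0.240). In SKM1 its change of -0.55 was not called, and in SKNO1 (0.12) and SHI1 (0.03) its sign differed from that of the brightest probe set. The third probe set (207004_at) had signals near the floor, the same value on 7 arrays, and no call. The change of the brightest probe set differed between lines (F-test adjusted p = 0.0384), and in GDM1 it differed from the mean of the other 6 lines by -0.38 ± 0.11 (adjusted p = 0.0233). GDM1, with the largest fall, also had the highest DMSO level (12.29), followed by THP1 (11.59), MOLM13 (11.30), SKM1 (10.61), NOMO1 (10.47), SKNO1 (10.01) and SHI1 (9.62). Only the neighbours SKM1 and NOMO1 did not differ (adjusted p = 0.218), and 20 of 21 pairs were called.

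MCL1, a short-lived survival-promoting protein needed by myeloid cells, changed little. Its brightest probe set (200797_s_at) rose by 0.14 ± 0.03 on average (adjusted p = 0.000626). SKM1 gave the only call in a line, with 13.46 and 13.38 under GSK3484862 and 13.02 and 13.15 under DMSO, a rise of 0.33 ± 0.07 (adjusted p = 0.00451). Without DMSO replicate 1 of SKM1 the rise was 0.27 (adjusted p = 0.0514). Among the 5 MCL1 probe sets, 200798_x_at also rose on average (0.10 ± 0.03, adjusted p = 0.0142), and the other 3, with average changes of 0.04, 0.02 and 0.07, were not called. As the mean of all 5 probe sets the change was 0.08 (adjusted p = 0.161), and the 2 probe sets without the _s_at or _x_at mark of probes shared between transcripts had negative changes in SKM1 (-0.24 and -0.32). The MCL1 rise thus rested on the 2 brightest probe sets. DMSO levels ran between 13.09 in SKM1 and 12.04 in GDM1, a narrower range than for any other survival-promoting member, and 17 of 21 pairs differed.

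BCL2L1, which encodes the survival-promoting BCL-XL and, by splicing, a shorter pro-apoptotic form, was not called on average by any of its 4 probe sets (average changes 0.0011 to 0.14). The brightest (212312_at) had the highest change in MOLM13, with 6.53 and 6.72 under GSK3484862 and 6.38 and 6.31 under DMSO (0.27, adjusted p = 0.109). The probe set 215037_s_at fell in the same line, with 4.28 and 4.41 under GSK3484862 and 4.96 and 4.88 under DMSO (-0.57 ± 0.19, adjusted p = 0.0399), a call lost when any 1 of the 4 arrays was left out (adjusted p 0.0840 to 0.203). Of the other probe sets there, 206665_s_at changed by -0.46 and 231228_at by 0.51, neither called. The probe sets of this gene therefore gave opposite signs in MOLM13. Against the mean of the other 6 lines, MOLM13 differed by -0.59 ± 0.17 on 206665_s_at (adjusted p = 0.0465) and by -0.84 ± 0.20 on 215037_s_at (adjusted p = 0.0167). The F-test between lines was called on 215037_s_at (adjusted p = 0.0363) and not on 212312_at (adjusted p = 0.289). Without DMSO replicate 1 of GDM1 the rise in that line was called (0.40, adjusted p = 0.0431), and with it was not (0.23, adjusted p = 0.159). The value 7.16 stood on 6 arrays of the brightest probe set, among them all 4 of THP1, so its change of 0 there carries no spread of its own. The lines fell into 2 levels under DMSO. SKNO1 (9.16) and GDM1 (8.87) were high, and SKM1 (7.23), SHI1 (7.21), THP1 (7.16), NOMO1 (6.83) and MOLM13 (6.35) were low, with 1.65 ± 0.12 between GDM1 and SKM1. SKM1, SHI1 and THP1 did not differ as neighbours in this order, and 18 of 21 pairs did.

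BAK1, an effector that forms pores in the mitochondrial outer membrane, rose in SKM1. There it had 9.03 and 9.14 with GSK3484862, against 8.59 and 8.59 with DMSO, a rise of 0.49 ± 0.08 (adjusted p = 0.000571). No other line was called, and the next largest change was 0.21 in MOLM13 (10.32 and 10.33 with GSK3484862, 10.13 and 10.10 with DMSO, adjusted p = 0.0917). SKM1 had the lowest DMSO level of the 7 lines (8.59, against 9.18 to 10.12 elsewhere), and with GSK3484862 its mean of 9.08 was still below the DMSO mean of every other line. The changes differed between lines (F-test adjusted p = 0.0117), with SKM1 higher than the mean of the other 6 by 0.47 ± 0.09. The average rise of 0.09 ± 0.03 (adjusted p = 0.0361) was not called without SKM1 (0.02, adjusted p = 0.682) or without MOLM13 (0.07, adjusted p = 0.177). BAX, the other effector and the only measured member of its list, changed by 0.05 on average (adjusted p = 0.680).

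**Figure D4:**
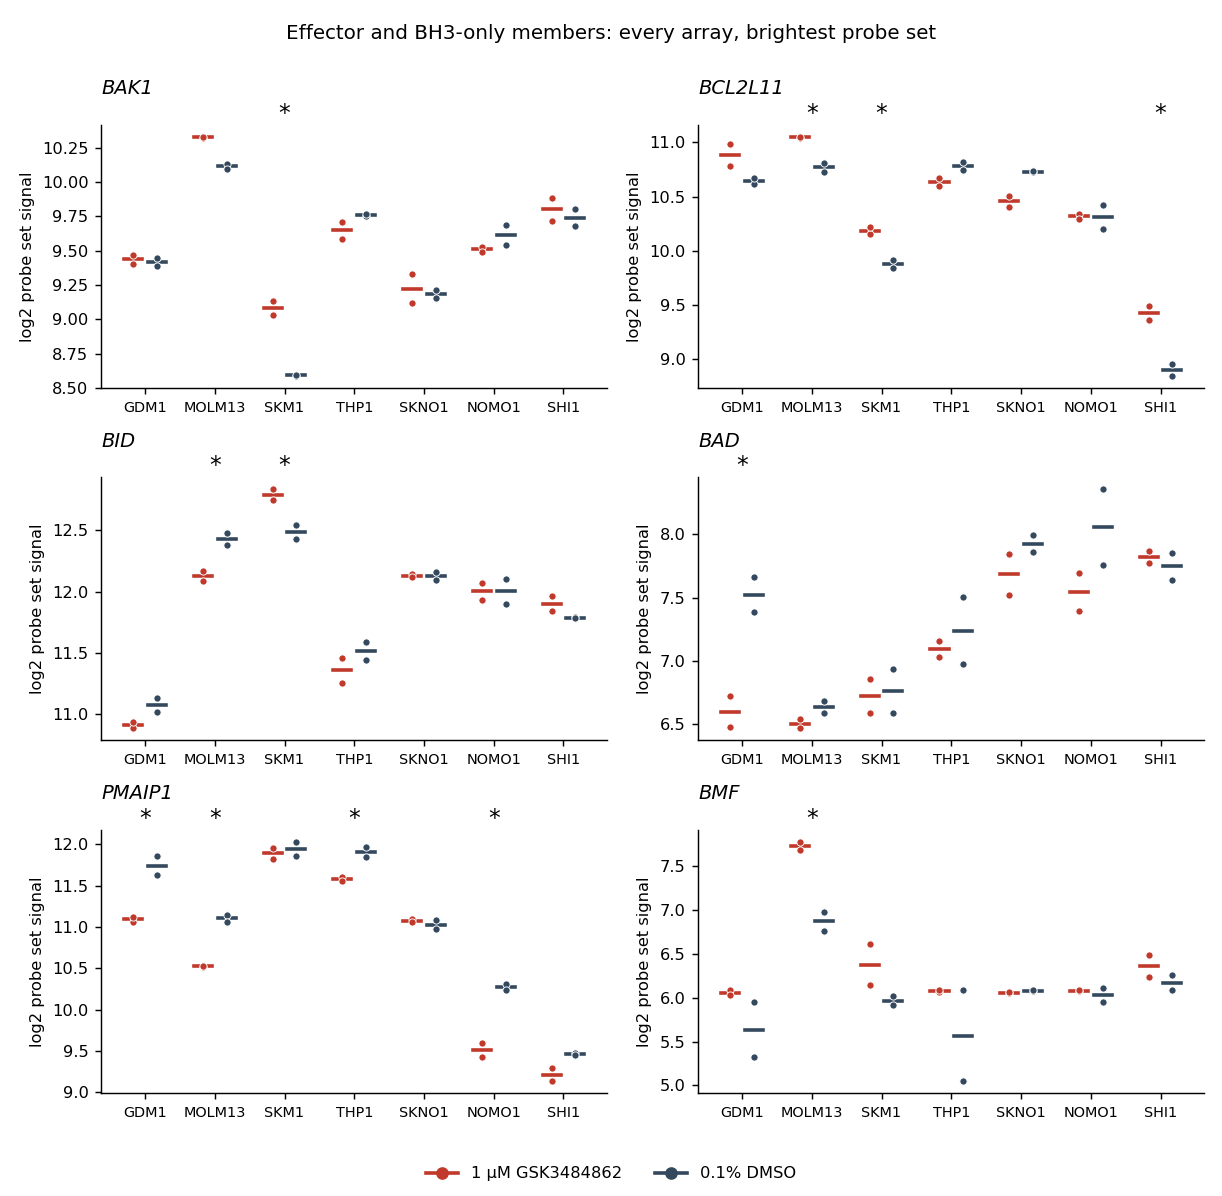
Log2 signal of the effector BAK1 and the 5 BH3-only members (brightest probe set) on every array, GSK3484862 left of DMSO in each of the 7 lines; points are arrays, bars are means of 2, and asterisks mark limma calls at an adjusted p under 0.05. PMAIP1 is called down in 4 lines, BID is called down in MOLM13 and up in SKM1, BAD is called down in GDM1, and BCL2L11 is called up in 3 lines; the axes differ between genes and do not start at 0.

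BCL2L11 encodes BIM, a BH3-only protein that binds all survival-promoting members and is controlled in haematopoietic cells by growth factors and FOXO factors. Its brightest probe set (225606_at) was called up in 3 lines and down in none. In SHI1 it had 9.49 and 9.37 with GSK3484862, against 8.85 and 8.96 with DMSO, a rise of 0.52 ± 0.09 (adjusted p = 0.00264). The rise in SKM1 was 0.31 ± 0.09 (10.15 and 10.22 with GSK3484862 against 9.85 and 9.91 with DMSO, adjusted p = 0.0175). The rise in MOLM13 was 0.28 ± 0.09 (11.05 and 11.05 with GSK3484862 against 10.81 and 10.73 with DMSO, adjusted p = 0.0287). In these 3 lines both treated arrays lay above both DMSO arrays, where 48.1% to 58.6% of all probe sets did not overlap. The MOLM13 call was lost without any 1 of its arrays (adjusted p 0.0641 to 0.160). The SKM1 call was lost without DMSO replicate 1 (0.27, adjusted p = 0.0968) or GSK3484862 replicate 2 (0.27, adjusted p = 0.0950). SKNO1 and THP1 had lower signals with GSK3484862, by changes that were not called (-0.27, adjusted p = 0.0992, and -0.14, adjusted p = 0.361). The change in GDM1, 0.24 (adjusted p = 0.0523), was called without GSK3484862 replicate 2 (0.34, adjusted p = 0.0243).

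The spread of BCL2L11 changes between lines was larger than the spread between duplicates (F-test adjusted p = 0.00116). The change in SHI1 lay 0.45 ± 0.09 above the mean of the other 6, and that in SKNO1 differed from it by -0.48 ± 0.09. A second probe set (1558143_a_at) also rose in SHI1 (8.22 and 8.23 with GSK3484862, 7.74 and 7.73 with DMSO, a change of 0.49, adjusted p = 0.00118). The same probe set fell in THP1 by 0.36 (adjusted p = 0.00515), and a further one (222343_at) fell there by 0.83 (adjusted p = 0.00471). Without GSK3484862 replicate 2 of THP1 both calls were lost (-0.32, adjusted p = 0.0582, and -0.48, adjusted p = 0.0691). The remaining 4 of the 7 BCL2L11 probe sets were called in no line. The average rise of the brightest (0.13 ± 0.03, adjusted p = 0.00319) was not called without SHI1 (0.07, adjusted p = 0.137) and was 0.20 without SKNO1, and the mean of all 7 probe sets changed by -0.0015 (adjusted p = 0.975). SHI1, the line with the largest rise, had the lowest DMSO level (8.90, against 9.88 in SKM1 and 10.31 to 10.78 in the other 5). THP1, MOLM13, SKNO1 and GDM1, at the top of the order, did not differ as neighbours, and 15 of 21 pairs were called.

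BID, the BH3-only protein that caspase-8 cleaves to link death receptors to mitochondria, was 1 of the genes with calls in both directions. MOLM13 had 12.08 and 12.17 with GSK3484862, against 12.48 and 12.38 with DMSO, a fall of -0.30 ± 0.09 (adjusted p = 0.0284). SKM1 had 12.83 and 12.74 with GSK3484862, against 12.43 and 12.54 with DMSO, a rise of 0.30 ± 0.09 (adjusted p = 0.0312). Both lines had the highest DMSO levels (12.43 in MOLM13 and 12.49 in SKM1, which did not differ), and treatment moved them apart. Each call is fragile, since 3 of the 4 single-array omissions ended it in MOLM13 (adjusted p 0.0572 to 0.194) and 3 of 4 in SKM1 (0.0516 to 0.171). The second probe set (227143_s_at) gave the same directions in both lines (-0.23 in MOLM13, adjusted p = 0.0352, and 0.32 in SKM1, adjusted p = 0.00528). Its MOLM13 call was lost without any 1 array (adjusted p 0.0925 to 0.161), and its SKM1 call without GSK3484862 replicate 1 (0.26, adjusted p = 0.0611). The third (204493_at) fell in MOLM13, with 10.77 and 10.94 under GSK3484862 against 11.43 and 11.28 with DMSO (-0.50 ± 0.11, adjusted p = 0.00288), and was not called in SKM1 (0.27, adjusted p = 0.0874). All 3 probe sets thus had a negative change in MOLM13 and a positive one in SKM1. The changes differed between lines on the brightest probe set (F-test adjusted p = 0.0312), with SKM1 0.38 ± 0.10 above the mean of the other 6. In all, 3 member probe sets (2 of BID and 1 of BCL2L11) were called up in 1 line and down in another, where 3.05% of all probe sets were.

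BAD, a BH3-only protein whose binding to BCL2 and BCL-XL is blocked by survival-factor phosphorylation, fell in GDM1. That line had 6.47 and 6.72 with GSK3484862, against 7.66 and 7.38 with DMSO (-0.92 ± 0.20, adjusted p = 0.00262). The second BAD probe set (1861_at) had 6.49 and 6.47 there with GSK3484862, against 7.10 and 7.10 with DMSO (-0.63 ± 0.08, adjusted p = 2.87e-05). The change in GDM1 on the brightest probe set was lower than the mean of the other 6 lines (difference -0.76 ± 0.22, adjusted p = 0.0252), while its F-test over all lines was not called (adjusted p = 0.123). That of 1861_at was called (adjusted p = 0.00407). In the other lines its changes were between -0.51 in NOMO1 and 0.07 in SHI1 with no call, and without DMSO replicate 1 the change in NOMO1 was -0.81 (adjusted p = 0.0331). The average fall of -0.28 ± 0.08 (adjusted p = 0.00816) was not called without GDM1 (-0.17, adjusted p = 0.137), and that of 1861_at (-0.16) was likewise lost without GDM1 (-0.09, adjusted p = 0.0778). The third probe set carried 1 value on 6 arrays and was not called. No neighbours in the DMSO order, which ran between 8.06 in NOMO1 and 6.63 in MOLM13, differed, although 13 of 21 pairs did.

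PMAIP1 encodes the BH3-only protein NOXA, a p53 target that neutralises MCL1 and BCL2A1. Its brightest probe set (204285_s_at) was called down in 4 lines, more than the brightest probe set of any other member. NOMO1 had 9.59 and 9.42 with GSK3484862, against 10.31 and 10.23 with DMSO. GDM1 had 11.06 and 11.12 with GSK3484862, against 11.85 and 11.63 with DMSO. MOLM13 had 10.51 and 10.53 with GSK3484862, against 11.14 and 11.07 with DMSO. In these lines every treated array lay at least 0.5 log2 units below every DMSO array. The fall was -0.76 ± 0.09 in NOMO1 (adjusted p = 8.49e-05), -0.65 ± 0.09 in GDM1 (6.22e-05) and -0.58 ± 0.09 in MOLM13 (0.000273). THP1 fell by 0.32 (11.60 and 11.56 with GSK3484862 against 11.84 and 11.97 with DMSO, adjusted p = 0.0383), a call lost without any 1 of its arrays (adjusted p 0.0746 to 0.228). SHI1 (-0.25, adjusted p = 0.251), SKM1 (-0.06, adjusted p = 0.774) and SKNO1 (0.05, adjusted p = 0.955) were not called, and in SKM1 and SKNO1 the groups overlapped.

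The PMAIP1 average was -0.37 ± 0.04 (adjusted p = 5.06e-07). Its changes differed between lines (F-test adjusted p = 0.00102). Against the mean of the other 6, NOMO1 (-0.46 ± 0.10) and GDM1 (-0.33 ± 0.10) were lower, and SKNO1 (0.48 ± 0.10) and SKM1 (0.36 ± 0.10) were higher. The second probe set (204286_s_at) also fell on average (-0.32 ± 0.06, adjusted p = 0.000761), by 0.82 in MOLM13 (adjusted p = 0.00247) and by 0.54 in GDM1 (adjusted p = 0.0267). The MOLM13 call was lost without DMSO replicate 1 (-0.63, adjusted p = 0.0503), and the GDM1 call under 3 of the 4 single-array omissions (adjusted p 0.0738 to 0.297). In NOMO1 the second probe set changed by -0.48 without a call (adjusted p = 0.112). Under DMSO the gene was highest in SKM1 (11.94), THP1 (11.91) and GDM1 (11.74), which did not differ as neighbours, then MOLM13 (11.10) and SKNO1 (11.03), which did not differ either, NOMO1 (10.27) and SHI1 (9.46), with 17 of 21 pairs called.

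BMF, a BH3-only protein released from the cytoskeleton by stress, rose in MOLM13, with 7.78 and 7.69 under GSK3484862 and 6.76 and 6.98 under DMSO (0.86 ± 0.24, adjusted p = 0.0182). That call was lost in 3 of the 4 single-array omissions (adjusted p 0.0589 to 0.134). Elsewhere the probe set lay near 6, and 9 of 28 arrays shared a value with another array, the value 6.08 alone on 5. THP1 had 6.07 and 6.08 with GSK3484862 and 6.08 and 5.05 with DMSO, with 1 DMSO array below the other 3 arrays. Its change of 0.51 was not called (adjusted p = 0.223), and without DMSO replicate 1 it was (1.02, adjusted p = 0.0108). The average rise of 0.35 ± 0.09 (adjusted p = 0.00627) was not called without MOLM13 (0.26, adjusted p = 0.0679). MOLM13 also had the highest DMSO level (6.87), the only one that differed from its neighbour, and 7 of 21 pairs were called.

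By line, the calls among the 30 probe sets were 3 up and 8 down in MOLM13, where 9.65% of all probe sets were called up and 11.5% down (21.2% in all). GDM1 had 1 up and 6 down (10.4% and 15.5% of all, 26% together), and SKM1 had 6 up and 1 down (9.69% and 10.3%, 20% together). THP1 had 1 up and 4 down (3.6% and 5.61%, 9.21% together). The calls in the other lines were 2 up in SHI1 (1.53% up and 0.524% down, 2.05% together), 1 down in NOMO1 (2.43% up and 4.46% down, 6.89% together) and none in SKNO1 (1.77% in each direction, 3.53% together). The SKNO1 count of 0 is from limma, where 2 up and 2 down had an unadjusted p under 0.05 and the smallest adjusted p was 0.0992, for BCL2L11. Both treated arrays lay outside both DMSO arrays for 16 of the 30 probe sets in GDM1 (59.4% of all probe sets), 21 in MOLM13 (58.6%), 15 in SKM1 (48.8%), 20 in THP1 (55.7%), 19 in SKNO1 (44.5%), 15 in NOMO1 (48%) and 15 in SHI1 (48.1%). No result about the family was read from these counts. In SKM1, BCL2A1, MCL1, BAK1, BCL2L11 and BID rose and BCL2 fell, and its count of 7 calls was 4 with array weights. In GDM1, BCL2A1 rose and BCL2, BAD and PMAIP1 fell, and in MOLM13 BCL2A1, BCL2L11 and BMF rose and BCL2, BID and PMAIP1 fell. Over all lines 33 of the 210 line-by-probe-set changes were called, and 5 reached 2-fold, 4 of them in BCL2A1 and 1 in the second BCL2 probe set in GDM1. The change differed between lines for 14 of 30 probe sets (25.2% of all) and 6 of 10 genes (32% of all genes). Against the mean of the other 6 lines, the change of 5 probe sets differed in GDM1 (16.3% of all), of 4 in MOLM13 (7.58%), of 6 in SKM1 (7.09%), of 2 in THP1 (2.3%), of 3 in SKNO1 (4.28%), of 1 in NOMO1 (3.25%) and of 2 in SHI1 (2.33%).

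The DMSO level differed between lines for 26 of the 30 probe sets, where 94.9% of all probe sets did. The 4 that were not called were the low BCL2 probe set 207004_at, the MCL1 probe set 214057_at, and the lowest probe sets of BCL2L11 and BAD. No line had the highest or lowest mean throughout. SKM1 led for MCL1, BID and PMAIP1 and was last for BAK1, MOLM13 led for BAK1 and BMF and was last for BCL2L1 and BAD, GDM1 led for BCL2 and was last for MCL1 and BID, and SHI1 was last for BCL2, BCL2L11 and PMAIP1. Levels were compared between lines within a probe set only, since signals of different probe sets have no common scale.

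Other genes of the mitochondrial pathway, from lists chosen by function, changed in both directions on average. The counts in these lists stand beside 22.2% of all genes called up and 27% called down, and none was tested against that share. Of 4 measured further BH3-only genes, BNIP3L (0.23) and BIK (0.21) rose and BNIP3, a hypoxia-induced mitophagy receptor, fell by 0.49 (adjusted p = 0.00535). The BIK changes differed between lines (F-test adjusted p = 7.16e-05). BIK was called down in GDM1 (-1.19, adjusted p = 8.01e-05) and up in SKM1 (1.31, adjusted p = 5.79e-05). Its average change was 0.44 without GDM1. Its call was lost without SKM1 (0.03, adjusted p = 0.783) or NOMO1 (0.15, adjusted p = 0.133), that of BNIP3L without NOMO1 (0.17, adjusted p = 0.120), THP1 (0.19, adjusted p = 0.0909) or MOLM13 (0.20, adjusted p = 0.0536), and that of BNIP3 without MOLM13 (-0.36, adjusted p = 0.0610). BCL2L2, a survival-promoting member, was not called (0.06, adjusted p = 0.523), nor were the 2 further homologues measured. Of the 3 outer membrane channels, VDAC1 fell by 0.22 (adjusted p = 9.66e-07) and VDAC3 by 0.06, a call lost without MOLM13, SKM1 or SHI1 (adjusted p 0.107 to 0.160).

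Downstream of the mitochondrion, 2 of 8 apoptosome and caspase genes rose and 4 fell. APAF1, the scaffold of the apoptosome (0.37 ± 0.09), and the initiator caspase CASP9 (0.30 ± 0.06) rose, while the intermembrane-space enzymes HTRA2 (-0.35 ± 0.03) and ENDOG (-0.28 ± 0.04) fell. Of 4 inhibitor of apoptosis genes, XIAP (0.24 ± 0.05) and BIRC2 (0.14 ± 0.03) rose and BIRC5, a protein of mitosis (-0.22 ± 0.03), fell. Without GDM1 the BIRC5 change was -0.11 (adjusted p = 0.0135). In the death receptor list 5 of 11 rose and 1 fell. TNFRSF10C, a TRAIL decoy receptor (1.31 ± 0.17), and CASP10 (0.45 ± 0.08) rose, and the adaptor FADD (-0.17 ± 0.03) fell.

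Among regulators, 3 of 8 NF-kB subunits and feedback inhibitors rose and none fell (0 also at an unadjusted p under 0.05, limma), with NFKBIA (0.23 ± 0.04) and RELB (0.20 ± 0.07) the largest. Without SKM1 the NFKBIA change was 0.14 (adjusted p = 0.0147). The RELB call was lost without GDM1 (0.11, adjusted p = 0.352), SKNO1 (0.14, adjusted p = 0.188) or SHI1 (0.19, adjusted p = 0.0844). Of 6 p53 and FOXO regulators 3 rose and none fell (0 also at an unadjusted p under 0.05, limma), led by TP53INP1, a p53-induced stress protein (1.03 ± 0.16), and FOXO1 (0.55 ± 0.09). FOXO1 was called in MOLM13 alone (2.15), and without that line its average was 0.29 (adjusted p = 0.0334). Of 4 enzymes that set MCL1 stability, the deubiquitinase USP9X rose (0.13 ± 0.03) and FBXW7, a ubiquitin ligase subunit, fell (-0.28 ± 0.05). The median change was 0.11 in the NF-kB list, 0.31 in the p53 and FOXO list and -0.10 in the MCL1 enzyme list, beside -0.02 for all genes.

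The genes whose 14 group means followed a member most closely, among 10134 genes that spanned at least 1 log2 unit, are given by Pearson's r as a description. All 14 points share their 7 lines, so r mostly follows the differences between lines. For BCL2A1 they were EHD1 (0.955), GRK6 (0.954) and SUCNR1 (0.949), for BCL2 TMTC4 (0.938), STRIP2 (0.927) and WDFY2 (0.927), and for MCL1 CBX7 (0.967), TSNAX (0.964) and TADA2B (0.946). BCL2L1 was closest to ATP2C1 (0.971), MEGF6 (0.968) and TESPA1 (0.966), and PMAIP1 to GNB5 (0.960), ASPH (0.917) and PHLPP1 (0.901). For BAK1 they were VRK3 (0.938), NUP62 (0.924) and DAZAP2 (0.905), for BCL2L11 GOLGA7 (0.952), STX12 (0.932) and DKFZP586I1420 (0.930), and for BID DDX27 (0.930), GRPEL1 (0.921) and PSMD5 (0.906). BAD was closest to EML4 (0.948), TMED4 (0.914) and PTPMT1 (0.910), and BMF to FAM124A (0.905), TRIM72 (0.886) and UPK3A (0.876). Over the 7 changes alone, r of BCL2A1 with EHD1 was 0.116 and with SUCNR1 0.496.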

How the data were processed

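The 28 arrays form 14 groups of 2, by line and treatment as labelled. Log2 signals of 27306 probe sets were deposited by the authors in 1 table, and limma is named in the submitters' processing notes without version or role. How background, summarisation, normalization and any filter were handled is not given in the sources used here, nor is the origin of values repeated on several arrays. The values were used as they stood. Scan dates and hybridisation batches were not used here.

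Gene names came from the platform annotation, with 22580 probe sets under 1 symbol, 1098 under several and 3628 under none. All 30 member probe sets matched the current symbol of their gene identifier. The probe set with the highest mean over the 28 arrays stood for its gene. One fit was made with limma 3.58.1 in R 4.3.3 (lmFit, eBayes with a constant prior, 14 residual and 2.37 prior degrees of freedom) on all probe sets. Its contrasts were the change in each line, their average, an F-test of differences between lines, each line's change against the other 6 lines' mean, and DMSO levels between lines. Tests were two-sided and Benjamini-Hochberg adjusted over all probe sets. The spread between duplicates gives the error of the average, which therefore speaks for these 7 lines. The scripts were tested on simulated data.

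The members and lists were chosen with earlier results of these data known. All members were named, with up to 2 called genes in each direction from each pathway list, the 3 genes most like each member, and DNMT1. Lists are described by counts and medians with no test. Alternatives were other normalizations, a filter on low values, other choices of probe set, variance models, array weights, replicate blocks, stricter thresholds, lines fitted alone or used as units, and each line or array left out. Same-numbered arrays of a line correlated at r = -0.12 to 0.31 in their deviations from the group means. The same measure between lines ran from -0.19 to 0.26, and SKNO1 (0.31), SKM1 (0.31) and NOMO1 (0.29) lay above that range. The main fit did not take the numbers as pairs, and the replicate blocks are the alternatives that did.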

Additional observations from a re-analysis of the deposited data

Results flagged for a closer look

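The change with GSK3484862 differed between the 7 lines by the limma F-test for 6 of the 10 genes. The adjusted p was 0.0384 for BCL2, 0.00239 for BCL2A1, 0.0117 for BAK1, 0.00116 for BCL2L11, 0.0312 for BID and 0.00102 for PMAIP1. Of all genes 32% were called by this test. With the replicate block within lines, 4 of the 10 genes were called.

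On the brightest probe sets, single lines stood apart from the mean of the other 6 as follows. For BCL2A1 the difference was 1.35 in MOLM13, 1.16 in SKM1 and -1.29 in SKNO1. For PMAIP1 it was -0.46 in NOMO1, -0.33 in GDM1, 0.36 in SKM1 and 0.48 in SKNO1. BCL2L11 differed by 0.45 in SHI1 and by -0.48 in SKNO1. GDM1 had a lower change of BCL2 (-0.38) and of BAD (-0.76), and SKM1 a higher change of BAK1 (0.47) and of BID (0.38). Over all member probe sets 23 such differences were called. Those on dimmer probe sets included BCL2L11 in THP1 (-0.46 on 1558143_a_at and -0.82 on 222343_at). They also included BCL2L1 in MOLM13 (-0.59 on 206665_s_at and -0.84 on 215037_s_at) and BID in MOLM13 (-0.48 on 204493_at). The F-test of BAD was not called on its brightest probe set (adjusted p = 0.123) and was on 1861_at (0.00407). Each group held 2 arrays, so no single array was tested for standing apart.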

How the results depend on the processing

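Of the alternatives to the members' average changes, 234 of 292 values kept their side of the threshold, 57 lost the call and 1 reversed, namely BCL2L11 as the mean of its probe sets (-0.0015). The 234 include 1 uncalled value that changed sign, that of BID without MOLM13 (0.016, against -0.03). Of the members' changes in single lines 1211 of 1349 kept their side of the threshold, 126 lost the call, 10 gained it and 2 reversed. The reversals were MCL1 in SKM1 without x_at and s_at probe sets (-0.24) and BCL2L11 in SKM1 as the mean of its probe sets (-0.017). The 1211 include 47 values that changed sign and were called in neither setting. Quantile normalization and centring on the median reversed no called value.

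Against 5 genes up and 3 down on average, the mean of all probe sets gave 3 up, the fit without MOLM13 gave 3 up, the 7 lines as units gave 0 up and 1 down (9 member probe sets at an unadjusted p under 0.05), and a 2-fold limit gave 1 up and 0 down. Against 6 probe sets up and 6 down, the lines as units gave 0 and 1, and the 2-fold limit 1 and 0. Keeping 1 replicate number gave 0 throughout, with 0 probe sets called in the whole table. That fit has no duplicates, so its error also holds the spread of the changes between lines. With a 2-fold limit the counts in lines were 2 in GDM1, 1 each in MOLM13, SKM1 and THP1, and 0 in NOMO1 and SHI1. With each line fitted on its own 4 arrays they were 2 in GDM1, 3 in MOLM13 and 0 in SKM1, THP1, NOMO1 and SHI1, where each fit has fewer residual degrees of freedom. In these limma fits BCL2A1 lost its calls in MOLM13 (adjusted p = 0.0536), GDM1 (0.109), SKM1 (0.150) and THP1 (0.175). PMAIP1 lost its calls in GDM1 (0.0618), THP1 (0.126) and NOMO1 (0.159). Those line calls thus rest on the spread shared by all lines. An adjusted p under 0.01 gave 6 in MOLM13, 2 in THP1, 3 genes and 6 probe sets with a difference between lines, and 7 of the 23 differences of 1 line from the other 6. Array weights gave 4 in SKM1, and the cause was not tested. Differences between lines numbered 8 probe sets without MOLM13 and 9 without SHI1, against 14.

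When single arrays were left out, the counts of called probe sets ran from 6 to 7 in GDM1, 6 to 9 in MOLM13, 5 to 8 in SKM1, 1 to 3 in THP1, 0 to 0 in SKNO1, 1 to 2 in NOMO1 and 2 to 2 in SHI1. Those of genes and probe sets that differed between lines ran from 4 to 7 and 9 to 15, of differences from the other 6 lines from 18 to 25, and of DMSO differences from 10 to 10 genes and 25 to 28 probe sets.

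The replicate number as a block over all lines changed no call of a member's brightest probe set on average or in a line, and left 21 of the 23 differences of 1 line from the other 6. As a replicate block within lines it left 18 of them, 2 calls in THP1, against 5, and a difference between lines for 4 genes, against 6, and 12 probe sets, against 14. Among the brightest probe sets it ended the calls of BCL2A1 (adjusted p = 0.0644) and PMAIP1 (0.0510) in THP1, of BCL2L11 in MOLM13 (0.0698), of BID in MOLM13 (0.0667) and SKM1 (0.0694), and of BAK1 on average (0.0563). With 2 arrays a group, a small change is seen in a line only through the spread shared by all lines, and signal near the floor bounds the size of a rise. Leaving out x_at and s_at probe sets left no PMAIP1 value, and the filter on low values kept 21 of the 30 member probe sets.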
